A study of Mus musculus with 6 samples.

Results

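The 10 genes described here are the TGF-beta, activin and inhibin ligands and their main receptors and antagonist, chosen by name: Tgfb1, Tgfb2 and Tgfb3, the receptor genes Tgfbr1, Tgfbr2 and Tgfbr3, the subunit genes Inha, Inhba and Inhbb, and the follistatin gene Fst. They are 10 of the 18305 genes in the tables. All 10 were among the 14581 genes that passed a filter on low counts. The study measured RNA by sequencing in cultured cells of KM mice, with 2 libraries in each of 3 groups. CiLC were mouse embryonic fibroblasts at passage 3 to 5 that were treated with small-molecule compounds, not named in the labels, 24 h after seeding into 6-well plates. LC were Leydig cells prepared from testis, at passage 0 to 1. MEF were the fibroblasts without that induction, at passage 3 to 5, and the embryos behind both fibroblast groups were taken 12.5 or 13.5 days post coitum. CiLC and MEF therefore share the embryonic source and the passages, and LC differ from both in tissue and in passage.

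TGF-beta ligands are secreted in a latent form that is stored in the extracellular matrix, and once released they bring type II and type I receptor kinases together, which phosphorylate SMAD proteins that act on gene transcription. Activins are dimers of the beta subunits encoded by Inhba and Inhbb, and use the same SMADs through activin receptors. Inhibins join a beta subunit to the alpha subunit encoded by Inha, block activin receptors with the help of betaglycan, the product of Tgfbr3, and in the testis are made by Sertoli cells and also by Leydig cells.

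The libraries held 18.4 to 18.9 M estimated reads each, with 16441 to 16631 genes above 0. Levels are CPM, estimated reads per M reads of the scaled library size, not divided by gene length, so they compare libraries and not genes. An SD is over the 2 libraries of a group. A gene was called where edgeR's quasi-likelihood test gave an adjusted p (Benjamini-Hochberg over all genes tested) under 0.05. Nothing in the labels ties the libraries to separate cultures or animals, so the p-values reflect spread between libraries, possibly technical. With 2 against 2 libraries an exact permutation test cannot fall under 0.05, and none is given. The 3 comparisons share libraries and are not independent of each other. Of the defining Leydig cell markers, Lhcgr had 3 and 2 reads and Cyp17a1 had 0 and 1 read in the LC libraries. Others were abundant there, with means of 182 CPM for Star, 705 CPM for Cyp11a1 and 165 CPM for Nr5a1. All 5 Leydig cell markers tested were called higher in LC than in MEF, where 35.7% of all genes were. The summed level of 8 Leydig cell markers was 144 to 148 CPM in CiLC, 1081 to 1109 CPM in LC and 7.55 to 9.4 CPM in MEF. Without Cyp11a1, the most abundant of them, the sum was 132 to 135 CPM in CiLC. It was 389 to 391 CPM in LC and 6.13 to 8.15 CPM in MEF. A list of 10 Sertoli cell markers summed to 97.9 to 100.2 CPM in CiLC, 2142 to 2144 CPM in LC and 28.4 to 31.1 CPM in MEF. Without Clu, its most abundant gene, the sum was 19 to 19.8 CPM in CiLC, 201 to 204 CPM in LC and 12.4 to 12.7 CPM in MEF, and 6 of the 10 had more than 3 reads in CiLC, 9 in LC and 5 in MEF. Fshr and Gata1 were at 0 in CiLC, and Fshr, Gata1, Dmrt1 and Rhox5 were at 0 in MEF. A list of 9 fibroblast markers summed to 30669 to 30896 CPM in CiLC, 27707 to 28426 CPM in LC and 28731 to 29561 CPM in MEF. Without Col1a1, its most abundant gene, the sum was 23404 to 23509 CPM in CiLC. It was 18960.2 to 19216 CPM in LC and 15631 to 15927 CPM in MEF. In LC against MEF 3 of the 9 were called higher and 6 lower, where 35.7% of all genes were higher and 35% lower. Thy1 averaged 816 CPM in CiLC, 5.72 CPM in LC and 395 CPM in MEF. Pdgfra went the other way in LC, at 943 CPM in CiLC, 1786 CPM in LC and 302 CPM in MEF. In bulk RNA, fewer cells of a type and less RNA per cell cannot be told apart.

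**Figure D1:**
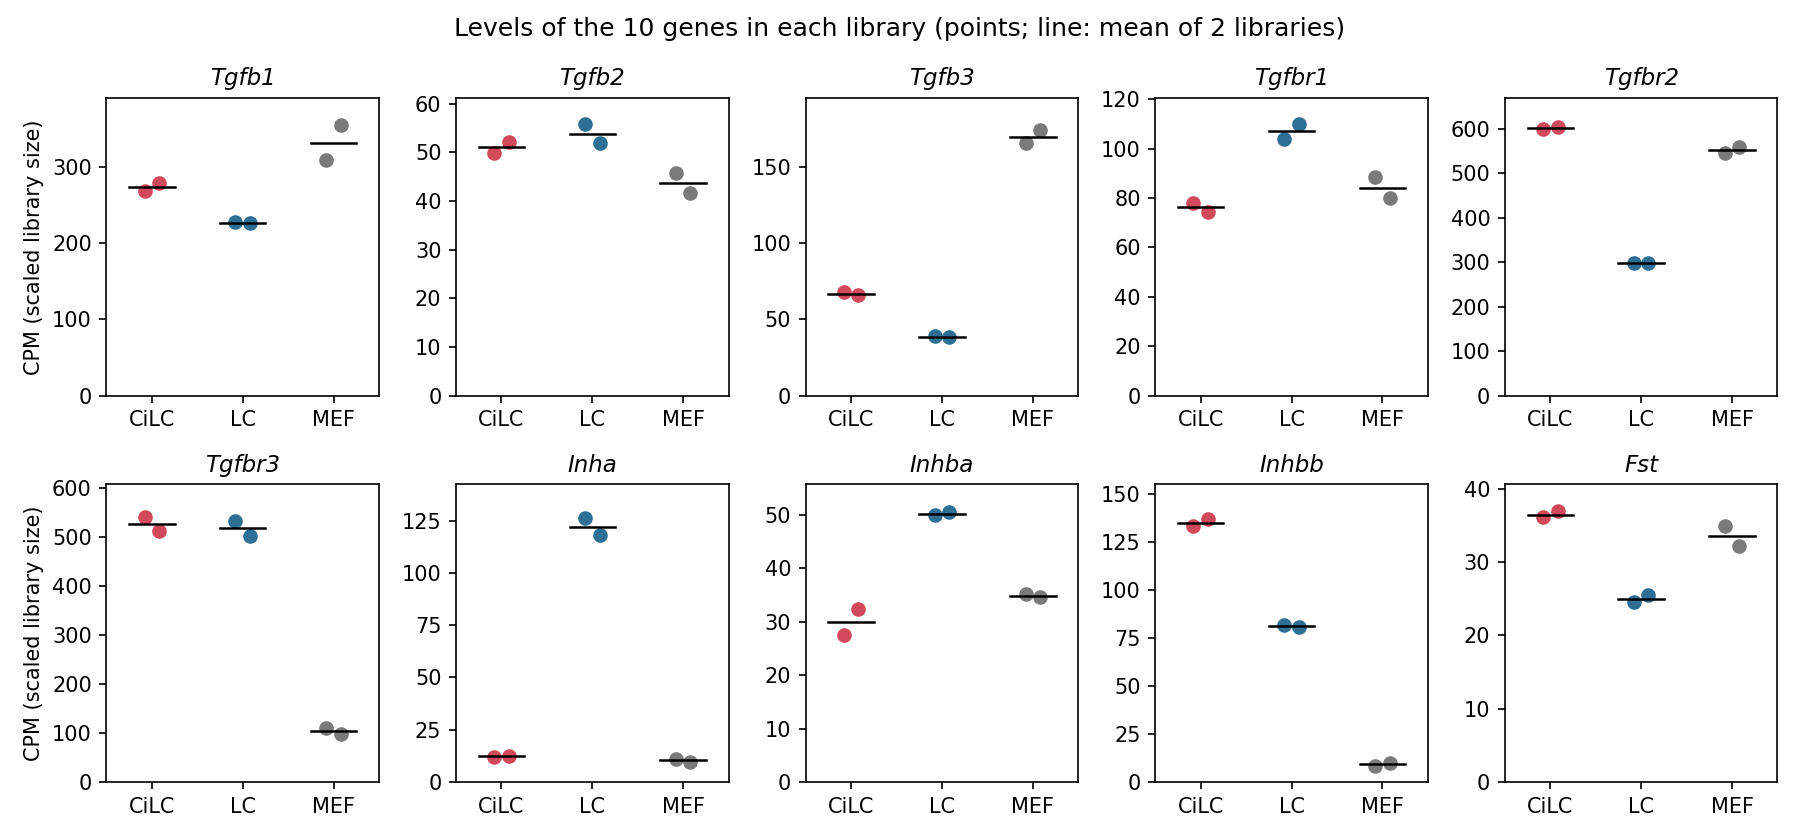
Level in CPM of each of the 10 genes in the 6 libraries, with CiLC, LC and MEF from left to right, points for libraries and lines for group means. Inhbb and Tgfbr3 were high in both CiLC and LC and low in MEF, whereas Inha was high in LC and low in CiLC and MEF.

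The beta-B subunit gene Inhbb (NCBI gene 16324, chromosome 1) had the largest difference from MEF of the 10 genes in CiLC, and Inha had it in LC. Inhbb stood at 133 and 137 CPM in CiLC, at 81.6 and 80.4 CPM in LC and at 8.28 and 9.89 CPM in MEF. The groups did not overlap, and the order was CiLC, then LC, then MEF. Inhbb was 14.8-fold higher in CiLC than in MEF (log2 fold change 3.89 ± 0.087 SE, edgeR adjusted p = 7.67e-22) and 8.91-fold higher in LC than in MEF (3.15 ± 0.089, edgeR adjusted p = 1.6e-20). It was also 1.66-fold higher in CiLC than in LC (0.74 ± 0.052, edgeR adjusted p = 1.15e-11). The window around the annotated start of this gene is printed because it carried the largest change in the treated fibroblasts. It covers 250 bases before and 50 after the start (RefSeq, assembly GRCm38.p6, minus strand, chr1:119422199-119422498, a build other than that of the counts), and capitals mark CG.
Inhbb promoter: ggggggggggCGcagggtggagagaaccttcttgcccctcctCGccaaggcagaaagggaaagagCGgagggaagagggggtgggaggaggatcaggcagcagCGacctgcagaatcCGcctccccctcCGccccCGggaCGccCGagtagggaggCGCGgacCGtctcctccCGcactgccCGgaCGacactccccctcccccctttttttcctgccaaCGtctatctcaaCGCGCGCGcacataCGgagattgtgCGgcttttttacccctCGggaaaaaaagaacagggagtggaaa
The window held 23 CG sites, against a median of 7 over all promoters of that table, and 21.5% of all promoters held as many or more. It contained no exact match, on either strand, to CAAGGTCA, the site of the steroidogenic factor encoded by Nr5a1, which 1.56% of promoters hold, to the cyclic AMP response element TGACGTCA, held by 1.79%, or to the SMAD-binding palindrome GTCTAGAC, held by 0.213%. These letters were also not found in the windows of Tgfb1, Tgfb2, Tgfbr1, Tgfbr2 and Inhba, which with Inhbb are the 6 of 10 genes whose listed window matched an annotated transcript start. The window listed for Inha matched none, so the region before the start of Inha was not searched.

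The inhibin alpha subunit gene Inha (16322, chromosome 1) was far higher in LC than in CiLC or MEF. It stood at 12.1 and 12.6 CPM in CiLC, at 126 and 118 CPM in LC and at 10.9 and 9.68 CPM in MEF. The LC libraries lay far above the rest, and CiLC lay just above MEF without overlap. Inha was 11.9-fold higher in LC than in MEF (log2 fold change 3.57 ± 0.083 SE, edgeR adjusted p = 4.02e-22) and 9.91-fold lower in CiLC than in LC (-3.31 ± 0.078, edgeR adjusted p = 1.07e-21). In CiLC it was 1.2-fold higher than in MEF (0.26 ± 0.10, edgeR adjusted p = 0.0355). That small difference was called in 7 of 14 alternatives, with adjusted p from 0.0307 to 1, and it was lost without CiLC replicate 1 (0.0767), CiLC replicate 2 (0.171) or MEF replicate 2 (0.264). All 8 Sertoli cell markers tested rose in LC over MEF and fell in CiLC over LC. Among them Amh had 27 and 27 reads and Dhh had 245 and 203 reads in LC. All 5 Leydig cell markers tested also rose in LC over MEF and fell in CiLC over LC. Of the Sertoli cell markers, Gata1, Aard, Dhh and Amh reached 10 reads only in LC. These passed the filter only through LC, so their direction is not separate support. Fshr, with 10 and 2 reads in LC, and Rhox5, with 0 and 2, were not tested. Of all genes, 35.7% were called higher in LC over MEF and 35.6% lower in CiLC over LC. The part of Sertoli or Leydig cell RNA in the Inha level was not tested.

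The beta-A subunit gene Inhba (16323, chromosome 13), whose product forms activin A, moved the other way from Inhbb in CiLC. It had 27.5 and 32.4 CPM in CiLC, 50.1 and 50.5 CPM in LC and 35.2 and 34.6 CPM in MEF. The CiLC libraries were the lowest and the LC libraries the highest. Inhba was 1.44-fold higher in LC than in MEF (log2 fold change 0.53 ± 0.068 SE, edgeR adjusted p = 3.33e-07) and 1.68-fold lower in CiLC than in LC (-0.75 ± 0.07, edgeR adjusted p = 1.65e-09). Against MEF it was 1.16-fold lower in CiLC (-0.22 ± 0.072, edgeR adjusted p = 0.0142), a call kept in 8 of 14 alternatives (adjusted p from 0.00236 to 1). Without CiLC replicate 1 the log2 fold change was -0.11 (edgeR adjusted p = 0.306), and without MEF replicate 1 the adjusted p was 0.0607. For Inhba 5 of the 6 values were not whole numbers, which makes its level less certain.

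The 3 subunit genes thus had a different balance in each cell population, which was measured as ratios of estimated reads within a library. The change of such a ratio between groups does not depend on gene length or on library scaling. Inhbb over Inhba was 4.82 and 4.22 in CiLC, 1.63 and 1.59 in LC and 0.235 and 0.286 in MEF, a ratio 17.4-fold higher in CiLC than in MEF and 6.2-fold higher in LC than in MEF. The balance had moved toward the beta-B subunit in both, and 2.8-fold further in CiLC than in LC. Inha over Inhbb was 0.0908 and 0.0923 in CiLC, 1.55 and 1.47 in LC and 1.32 and 0.979 in MEF. In CiLC this ratio of alpha to beta-B subunit reads was 12.4-fold lower than in MEF and 16.5-fold lower than in LC, while LC were 1.33-fold above MEF. These ratios carry no test.

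**Figure D2:**
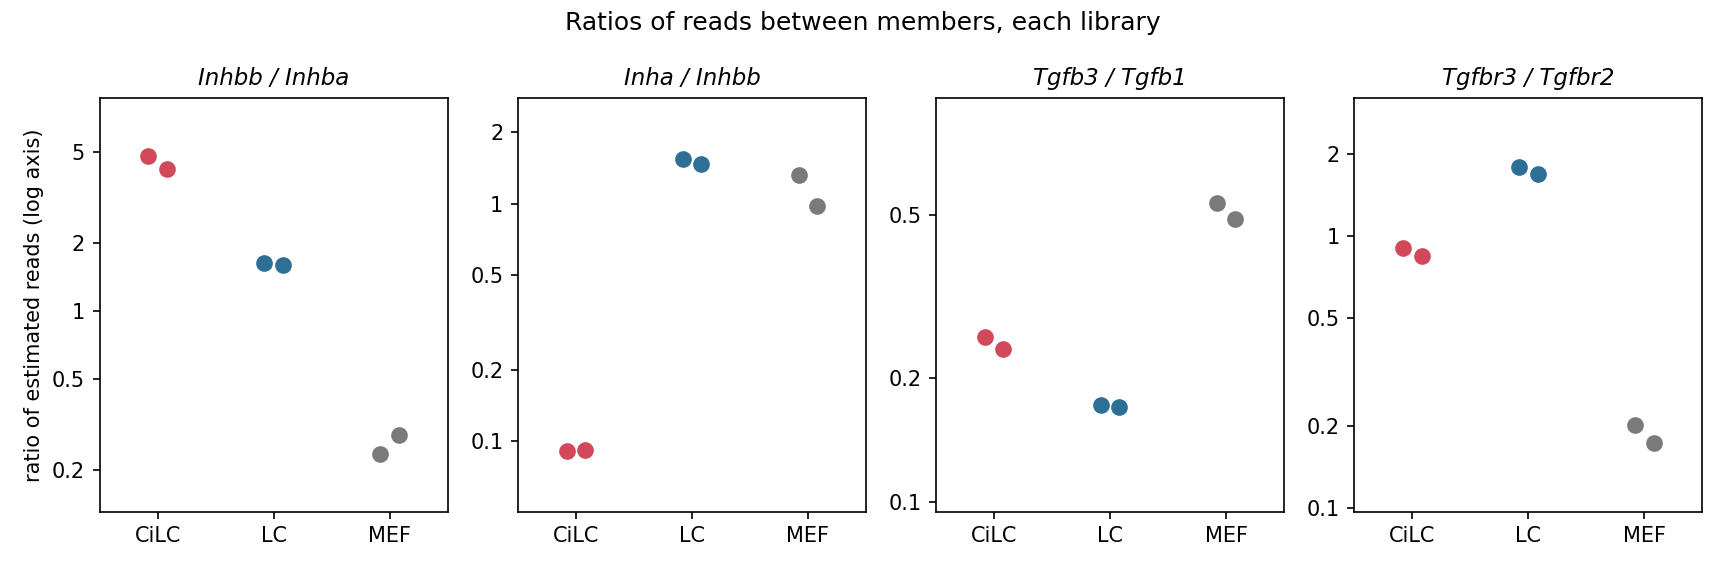
Ratios of estimated reads of pairs of genes in each library on a log axis, with CiLC, LC and MEF from left to right. The Inhbb over Inhba ratio was 4.82 and 4.22 in CiLC, 1.63 and 1.59 in LC and 0.235 and 0.286 in MEF.

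Follistatin, encoded by Fst (14313, chromosome 13), binds and neutralises activins. Fst was at 36.1 and 37.0 CPM in CiLC, 24.5 and 25.5 CPM in LC and 34.9 and 32.2 CPM in MEF. LC were the lowest, and the CiLC libraries stood above those of MEF by less than the test could call (log2 fold change 0.12 ± 0.065 SE, edgeR adjusted p = 0.123). Fst was 1.34-fold lower in LC than in MEF (-0.42 ± 0.071, edgeR adjusted p = 1.26e-05) and 1.46-fold higher in CiLC than in LC (0.55 ± 0.07, edgeR adjusted p = 2.82e-07). The ratio of Fst to Inhbb reads was 0.272 and 0.27 in CiLC, 0.301 and 0.317 in LC and 4.22 and 3.26 in MEF. The related activin antagonist Fstl3 had the opposite order, with 14.9 ± 0.904 CPM in CiLC, 145 ± 0.0166 CPM in LC and 28.7 ± 1.11 CPM in MEF (SD, n = 2 each). It was 9.71-fold lower in CiLC than in LC (edgeR adjusted p = 2.51e-22) and 1.92-fold lower in CiLC than in MEF (edgeR adjusted p = 4.08e-10).

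Of the 3 TGF-beta receptor genes Tgfbr1, Tgfbr2 and Tgfbr3, the gene for betaglycan, a coreceptor that presents TGF-beta2 and inhibins, differed most from MEF. Tgfbr3 (21814, chromosome 5) stood at 541 and 512 CPM in CiLC, 533 and 503 CPM in LC and 110.0 and 97.3 CPM in MEF. CiLC and LC overlapped, and MEF lay far below both. Tgfbr3 was 5.08-fold higher in CiLC than in MEF (log2 fold change 2.34 ± 0.056 SE, edgeR adjusted p = 9.25e-20) and 5-fold higher in LC than in MEF (2.32 ± 0.057, edgeR adjusted p = 2.07e-20). CiLC over LC gave 0.02 ± 0.052 (edgeR adjusted p = 0.715), a difference within its error whose sign changed with a library left out.

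The type II receptor gene Tgfbr2 (21813, chromosome 9), whose product binds TGF-beta directly, was at 599 and 604 CPM in CiLC, 298 and 297 CPM in LC and 545 and 559 CPM in MEF. Both LC libraries lay far below the rest, and CiLC lay slightly above MEF. It was 1.86-fold lower in LC than in MEF (log2 fold change -0.89 ± 0.045 SE, edgeR adjusted p = 1.89e-14) and 2.02-fold higher in CiLC than in LC (1.02 ± 0.045, edgeR adjusted p = 1.69e-15). In CiLC it was 1.09-fold higher than in MEF (0.12 ± 0.044, edgeR adjusted p = 0.0209), a call kept in 9 of 14 alternatives (adjusted p from 0.012 to 1) and lost without CiLC replicate 1 (0.105), CiLC replicate 2 (0.128) or MEF replicate 1 (0.112). A list of 13 macrophage markers, all detected in each group, summed to 11299 to 11509.7 CPM in CiLC, 3978 to 4328 CPM in LC and 8124 to 8220.3 CPM in MEF. Without Lyz2, its most abundant gene, the sum was 3817 to 3855 CPM in CiLC, 1579 to 1621 CPM in LC and 5492 to 5533 CPM in MEF. LC were lowest either way, as for Tgfbr2, but CiLC were above MEF only with Lyz2. In CiLC against MEF 4 of the 13 were higher and 6 lower, where 26.1% of all genes were called higher and 25.5% lower. The part of macrophage RNA in the Tgfbr2 level was not tested. The ratio of betaglycan reads to type II receptor reads was 0.903 and 0.847 in CiLC, 1.79 and 1.69 in LC and 0.202 and 0.174 in MEF.

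The type I receptor kinase gene Tgfbr1 (21812, chromosome 4) differed little. It had 78.1 and 74.4 CPM in CiLC, 104 and 109.8 CPM in LC and 88.5 and 79.9 CPM in MEF. It was 1.27-fold higher in LC than in MEF (log2 fold change 0.34 ± 0.056 SE, edgeR adjusted p = 1.07e-05) and 1.4-fold lower in CiLC than in LC (-0.48 ± 0.057, edgeR adjusted p = 7.63e-08). In CiLC it was 1.1-fold lower than in MEF (-0.14 ± 0.057, edgeR adjusted p = 0.0422). That call was kept in 5 of 14 alternatives (adjusted p from 0.0111 to 1), and it was lost when either CiLC library (0.0606 without replicate 1, 0.266 without replicate 2), MEF replicate 1 (0.406, log2 fold change -0.07) or either LC library (0.0593 without replicate 1, 0.0596 without replicate 2) was left out. All 6 Tgfbr1 values were not whole numbers.

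The 3 TGF-beta ligand genes had different patterns. Tgfb3 (21809, chromosome 12) was at 68.0 and 65.7 CPM in CiLC, 39.2 and 38.5 CPM in LC and 166 and 174 CPM in MEF. Both CiLC libraries lay between the other groups. Tgfb3 was 2.54-fold lower in CiLC than in MEF (log2 fold change -1.34 ± 0.05 SE, edgeR adjusted p = 1.87e-16), 4.37-fold lower in LC than in MEF (-2.13 ± 0.056, edgeR adjusted p = 4.26e-20) and 1.72-fold higher in CiLC than in LC (0.78 ± 0.06, edgeR adjusted p = 4.33e-11). Tgfb1 (21803, chromosome 7), the form found in most tissues, had the same order with smaller steps, at 268 and 279 CPM in CiLC, 228 and 226 CPM in LC and 309 and 355 CPM in MEF. It was 1.21-fold lower in CiLC than in MEF (-0.28 ± 0.054, edgeR adjusted p = 0.000149), 1.46-fold lower in LC than in MEF (-0.55 ± 0.055, edgeR adjusted p = 6.64e-09) and 1.2-fold higher in CiLC than in LC (0.27 ± 0.056, edgeR adjusted p = 0.000187). Its MEF libraries were farther apart than those of CiLC or LC, and without MEF replicate 2 the log2 fold change of CiLC over MEF was -0.17. The ratio of Tgfb3 to Tgfb1 reads was 0.253 and 0.236 in CiLC, 0.172 and 0.17 in LC and 0.537 and 0.489 in MEF. A list of 8 peritubular myoid and smooth muscle markers summed to 177 to 178 CPM in CiLC. The sum was 1055 to 1061 CPM in LC and 1627 to 1705 CPM in MEF. Without Acta2, its most abundant gene, the sum was 74.7 to 78.8 CPM in CiLC, 625 to 637 CPM in LC and 536 to 537 CPM in MEF. In LC against MEF 3 of the 8 were higher and 5 lower, where 35.7% of all genes were called higher and 35% lower. Tgfb3 was lowest in LC. All 8 markers had more than 3 reads in each group. A list of 6 pericyte markers summed to 279 to 286 CPM in CiLC, 302 to 307 CPM in LC and 997 to 1004 CPM in MEF. Without Pdgfrb, its most abundant gene, the sum was 37.6 to 38.6 CPM in CiLC, 63 to 68.7 CPM in LC and 249 to 262 CPM in MEF. MEF were highest either way, as for Tgfb3, but LC were above CiLC, unlike Tgfb3. The part of the cells of either list in the Tgfb3 level was not tested. Tgfb2 (21808, chromosome 1), which needs betaglycan for full binding, was at 49.9 and 52.0 CPM in CiLC, 55.9 and 51.8 CPM in LC and 45.7 and 41.7 CPM in MEF. CiLC and LC overlapped (log2 fold change of CiLC over LC -0.08 ± 0.062 SE, edgeR adjusted p = 0.259). Tgfb2 was 1.23-fold higher in LC than in MEF (0.30 ± 0.063, edgeR adjusted p = 0.000213) and 1.17-fold higher in CiLC than in MEF (0.22 ± 0.063, edgeR adjusted p = 0.00513), a call kept in 9 of 14 alternatives (adjusted p from 0.00341 to 1) and lost without CiLC replicate 2 (0.0668) or MEF replicate 2 (0.0953).

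**Figure D3:**
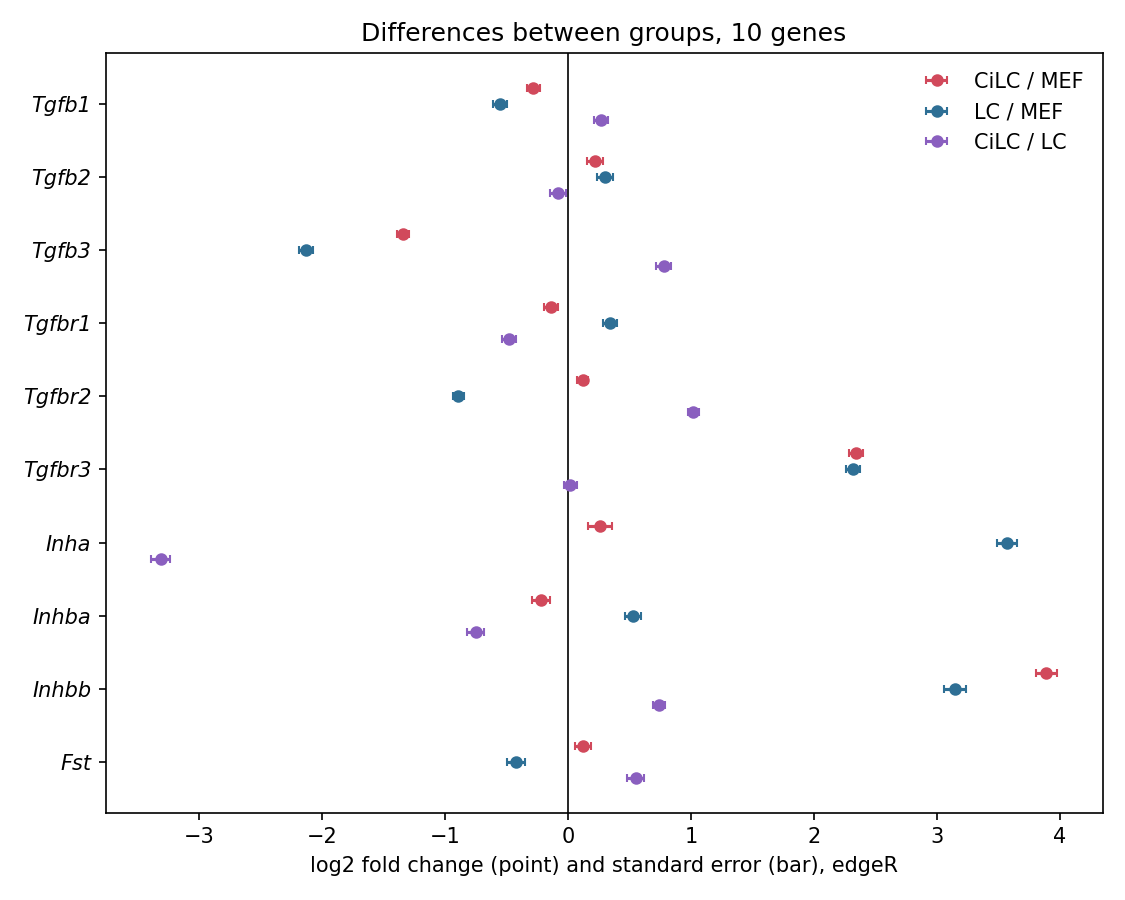
Log2 fold change of each of the 10 genes in CiLC over MEF, LC over MEF and CiLC over LC, with bars of 1 SE. Inhbb and Tgfbr3 are high in both comparisons against MEF, and Inha is far from 0 in LC over MEF (3.57) and CiLC over LC (-3.31).

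Counted over the 10 genes, 5 were called higher in CiLC than in MEF (Tgfb2, Tgfbr2, Tgfbr3, Inha and Inhbb) and 4 lower (Tgfb1, Tgfb3, Tgfbr1 and Inhba). Of all genes tested in that comparison, 26.1% were called higher and 25.5% lower, so calls were common. The count of genes called higher was 3 without CiLC replicate 1, 2 without CiLC replicate 2 and 3 without MEF replicate 2, and the count called lower was 2 without CiLC replicate 1 or MEF replicate 1. In LC against MEF 6 were higher and 4 lower, where 35.7% of all genes were called higher and 35% lower. In CiLC against LC 5 were higher and 3 lower, where 35% were called higher and 35.6% lower. The median log2 fold change of the 10 was 0.12 in CiLC over MEF, 0.32 in LC over MEF and 0.14 in CiLC over LC, beside 0.01, -0.01 and 0.00 over all genes tested. The median size of the change was 0.24, 0.72 and 0.64, beside 0.25, 0.45 and 0.44 over all genes. The spread between libraries was small, with a common biological coefficient of variation of 3.16%. When a coefficient of 0.4 was assumed instead, 2 genes were called in CiLC against MEF (Inhbb and Tgfbr3, with 4.63% of all genes called in either direction), 4 in LC against MEF (Tgfb3, Tgfbr3, Inha and Inhbb, with 17.2%) and 1 in CiLC against LC (Inha, with 15.4%).

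The wider pathway was read from lists that held, with these 10 genes, 87 genes, of which 80 were tested. The list of other activin-class ligands also held Amh, Lefty1 and Lefty2. Of its 6 tested genes, 1 was called in CiLC against MEF (16.7%, beside 51.6% of all genes). This was Gdf3, a growth factor of early embryos, 2.3-fold higher in CiLC than in MEF (edgeR adjusted p = 0.0067). It had 1.44 ± 0.0528 CPM in CiLC, 2.75 ± 0.373 CPM in LC and 0.631 ± 0.144 CPM in MEF (SD, n = 2 each). Its reads were 27.5 and 29.1 in CiLC and 10.1 and 14.1 in MEF. All 6 Gdf3 values were not whole numbers, which makes its level less certain. In CiLC against LC 1 of the 6 was higher and 3 were lower (66.7% called, beside 70.6% of all genes). Gdf11, which patterns the body axis, was the 1 that was higher, with 9.7 ± 0.766 CPM in CiLC, 6.04 ± 0.0232 CPM in LC and 11.1 ± 2.6 CPM in MEF. Lefty1, an antagonist of Nodal, was lower, with 1.54 ± 0.12 CPM in CiLC, 2.44 ± 0.155 CPM in LC and 1.78 ± 0.55 CPM in MEF. All 6 Lefty1 values were also not whole numbers. In CiLC against MEF, 3 of 11 tested receptors and coreceptors were higher and 2 were lower (45.5% called, beside 51.6% of all genes). In CiLC against LC 4 were higher and 6 were lower (90.9% called, beside 70.6% of all genes). Acvr2a, a type II activin receptor, had 88.7 ± 4.21 CPM in CiLC, 11.2 ± 1.05 CPM in LC and 75.7 ± 0.843 CPM in MEF, 7.91-fold higher in CiLC than in LC (edgeR adjusted p = 3.08e-20). Its relative Acvr2b differed less, and the ratio of Acvr2a to Acvr2b reads was 6.15 and 5.68 in CiLC, 0.995 and 0.971 in LC and 4.87 and 4.68 in MEF. The type I activin receptor gene Acvr1b had 47.8 ± 0.183 CPM in CiLC, 77.1 ± 4.66 CPM in LC and 29.0 ± 0.297 CPM in MEF, and was 1.65-fold higher in CiLC than in MEF (edgeR adjusted p = 1.99e-09). Endoglin, a coreceptor best known from endothelium, was 5.28-fold lower in CiLC than in LC, with Eng at 36.5 ± 0.619 CPM in CiLC, 193 ± 6.02 CPM in LC and 53.2 ± 2.14 CPM in MEF (edgeR adjusted p = 5.37e-21), and a list of 8 endothelial markers summed to 13.3 to 13.4 CPM in CiLC, 75 to 83.9 CPM in LC and 27.8 to 27.9 CPM in MEF, with more than 3 reads for 6 of them in CiLC, 8 in LC and 6 in MEF. Without Cdh5, its most abundant gene, that sum was 8.47 to 8.65 CPM in CiLC, 17.9 to 20 CPM in LC and 23.8 to 24.8 CPM in MEF, and LC were no longer above MEF. Acvrl1, a type I receptor also best known from endothelium, had 34.7 ± 2.63 CPM in CiLC, 114 ± 3.98 CPM in LC and 44.7 ± 1.26 CPM in MEF. The part of endothelial RNA in either level was not tested. Amhr2, the receptor of anti-Muellerian hormone, had 3 and 4 reads in CiLC, 375 and 349 reads in LC and 1 and 2 reads in MEF. Bmpr1b, a type I receptor for bone morphogenetic proteins, had 70 and 70 reads in CiLC, 5 and 5 reads in LC and 68 and 71 reads in MEF.

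In CiLC against MEF, 4 of 16 tested genes for latency, activation and extracellular antagonism were higher and 8 were lower (75% called, beside 51.6% of all genes). Ltbp1, a latent TGF-beta binding protein that anchors the latent ligand, was 2.92-fold lower in CiLC than in MEF (edgeR adjusted p = 1.67e-17), with 87.7 ± 3.86 CPM in CiLC, 254 ± 6.95 CPM in LC and 256 ± 3.72 CPM in MEF. Thbs1, thrombospondin, which can activate latent TGF-beta, was 2.67-fold lower in CiLC than in MEF, with 3951 ± 101 CPM in CiLC, 1597 ± 26.7 CPM in LC and 10531 ± 434 CPM in MEF. Decorin, a proteoglycan that binds TGF-beta, was 2.82-fold higher in CiLC than in MEF, with Dcn at 1279 ± 27.3 CPM in CiLC, 1124 ± 74 CPM in LC and 454 ± 29.2 CPM in MEF. Fbn2, a fibrillin that binds latent complexes, had 561 ± 23 CPM in CiLC, 2.98 ± 0.0318 CPM in LC and 683 ± 5.9 CPM in MEF. Itgb8, an integrin subunit that activates latent TGF-beta, was 12.6-fold lower in CiLC than in LC (edgeR adjusted p = 3.65e-15), with 1.4 ± 0.398 CPM in CiLC, 17.7 ± 0.726 CPM in LC and 0.575 ± 0.224 CPM in MEF. Against LC, 5 of the 16 were higher in CiLC and 11 lower, where 70.6% of all genes were called in either direction.

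Among 15 tested SMADs and intracellular regulators, 9 fell and 1 rose in CiLC against MEF (66.7% called, beside 51.6% of all genes). Pmepa1 and Smad7, feedback inhibitors of the pathway, were 2.42-fold and 1.83-fold lower in CiLC than in MEF (edgeR adjusted p = 3.13e-16 and 6.42e-08). Pmepa1 had 205 ± 4.67 CPM in CiLC, 160.2 ± 6.71 CPM in LC and 495 ± 21.6 CPM in MEF, and Smad7 had 12.7 ± 0.498 CPM in CiLC, 36.1 ± 4.49 CPM in LC and 23.3 ± 1.19 CPM in MEF. Skil, a SMAD corepressor, was 1.38-fold lower in CiLC than in MEF, with 82.2 ± 0.741 CPM in CiLC, 96.1 ± 1.95 CPM in LC and 114 ± 6.07 CPM in MEF. Against LC, 3 of the 15 were higher in CiLC and 10 lower (86.7% called, beside 70.6% of all genes). Among those lower were the ubiquitin ligase gene Smurf1 with 56.6 ± 0.615 CPM in CiLC, 118 ± 2.99 CPM in LC and 71.5 ± 0.232 CPM in MEF, and the corepressor gene Tgif2 with 260.0 and 291 reads in CiLC, 458 and 407 reads in LC and 237 and 279 reads in MEF.

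Of 22 genes that TGF-beta is known to act on, 18 were lower and 3 higher in CiLC than in MEF, with a median log2 fold change of -0.80 beside 0.01 over all genes. Of all genes, 25.5% were called lower and 26.1% higher. Under an assumed coefficient of variation of 0.4, 5 of the 22 were called lower and 1 higher, where 4.63% of all genes were called in either direction. In LC against MEF 7 were higher and 13 lower (median -0.37), where 70.7% of all genes were called. In CiLC against LC 9 were higher and 13 lower (median -0.35), where 70.6% were called. Cnn1, calponin, was 27.3-fold lower in CiLC than in MEF (edgeR adjusted p = 5.17e-17), with 0.787 ± 0.253 CPM in CiLC, 8 ± 0.245 CPM in LC and 21.7 ± 0.699 CPM in MEF. Tagln, transgelin, was 11.7-fold lower in CiLC than in MEF (edgeR adjusted p = 4.89e-23), with 33.1 ± 0.928 CPM in CiLC, 470.0 ± 15.3 CPM in LC and 388 ± 0.426 CPM in MEF. Ankrd1, a nuclear ankyrin repeat protein, was 15.2-fold lower in CiLC than in MEF and 14.3-fold lower in CiLC than in LC, with 1.35 ± 0.0392 CPM in CiLC, 19.3 ± 1.07 CPM in LC and 20.6 ± 0.62 CPM in MEF. Postn, a matrix protein, was 54.1-fold higher in CiLC than in LC, with 1739 ± 55.4 CPM in CiLC, 32.2 ± 3.21 CPM in LC and 3140.0 ± 168 CPM in MEF. The 3 genes called higher in CiLC than in MEF were Col3a1, a fibrillar collagen (2.49-fold), Snai1, a repressor of epithelial genes (1.54-fold), and Angptl4, an inhibitor of lipoprotein lipase (6.9-fold). Cnn1, Tagln and Acta2 are on both the response list and the peritubular myoid and smooth muscle list. All 8 markers of the latter list fell in CiLC against MEF, where 25.5% of all genes were called lower. The part of such cells in the response list was not tested.

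**Figure D4:**
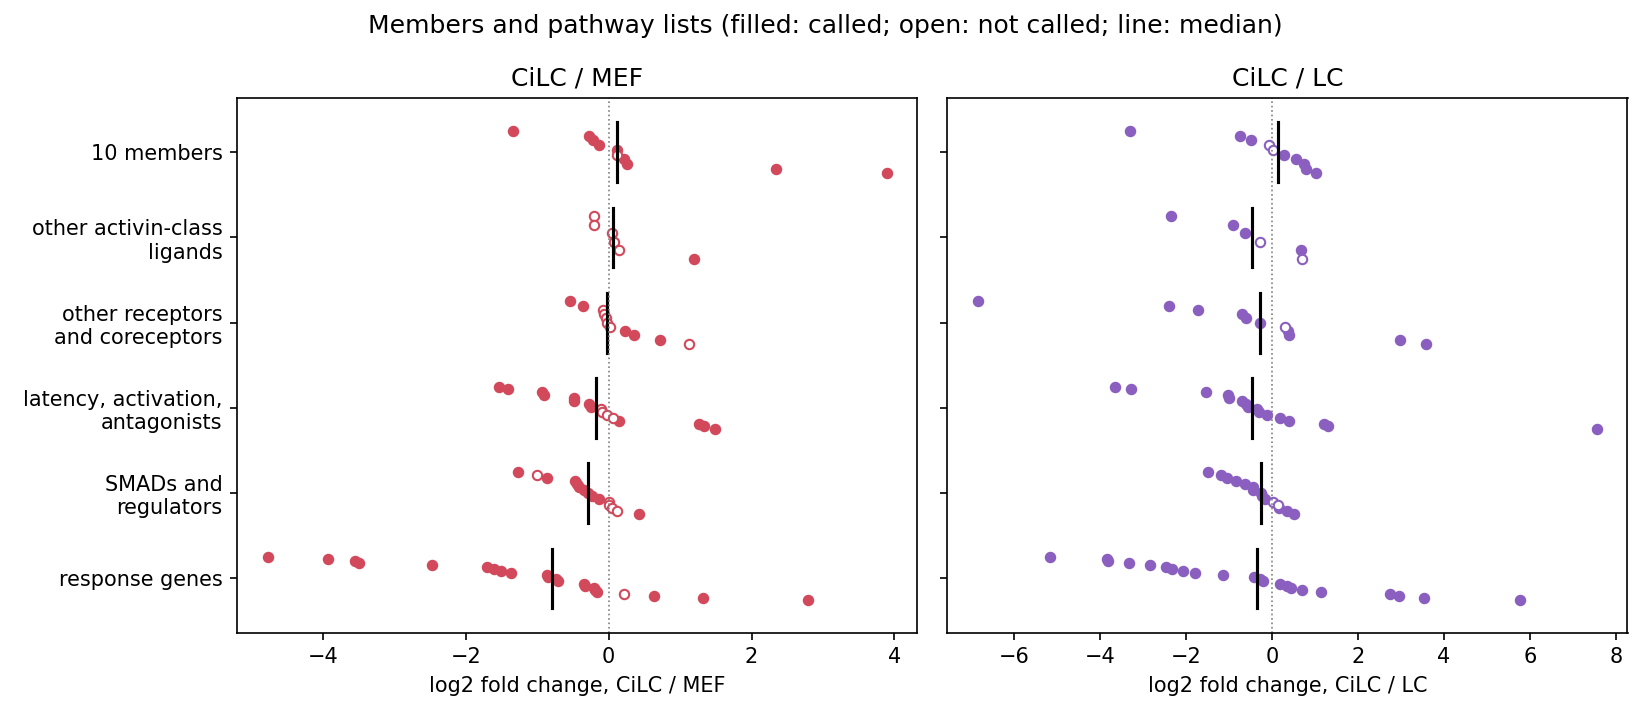
Log2 fold changes of the tested genes of each list in CiLC over MEF and in CiLC over LC, with filled points for called genes, open points for others and lines for medians. The response genes have a median of -0.80 in CiLC over MEF.

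By Euclidean distance between centred log2(CPM + 1) profiles over the 6 libraries, taken over 14571 other genes, the genes most like Inhbb were Sfrp2 (distance 0.276) and Ifi205 (0.406, from a family of near-identical copies). Sfrp2, a secreted Wnt antagonist, averaged 294 CPM in CiLC, 175 CPM in LC and 24.4 CPM in MEF. Nearest to Inha were Slc25a30 (0.186), a mitochondrial carrier, and Serpinb9 (0.196), a protease inhibitor, which averaged 24.9 CPM in CiLC, 231 CPM in LC and 22.4 CPM in MEF. Nearest to Tgfbr3 were Cxadr (0.218), a cell adhesion protein, and Atp8b1 (0.322), a lipid flippase, with Cxadr at 45.9 CPM in CiLC, 52.1 CPM in LC and 8.64 CPM in MEF. With 3 groups, many genes can share such a profile.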

How the data were processed

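RNA was sequenced on a BGISEQ-500 in 2 libraries each of CiLC, LC and MEF, grouped by sample titles. Each deposited table holds an expected count for each gene (an estimate of its reads), made by the authors by aligning with HISAT to the build mm9, per the submitters' processing notes. Aligner version, counting tool, annotation and strand use: not given in the sources used here. Values that were not whole made up 32.4% to 32.8% of a library, and where genes overlap or lie antisense their reads could not be separated. Symbols came by gene number from a RefSeq table of GRCm38.p6 (18179 of 18305 genes), which also gave chromosomes and promoter windows.

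Counts were rounded for edgeR 4.0.16 (R 4.3.3). A low-count filter, filterByExpr with a minimum count of 10 and total of 15, removed 3724 genes. A single quasi-likelihood model of group, with TMM scaling, took all 6 libraries. Tests were two-sided, adjusted by Benjamini-Hochberg over 14581 genes, and called at 0.05. Fold changes used a prior count of 0.125, and SEs came from the fitted weights and moderated quasi-dispersion. The scripts were checked on simulated counts. DESeq2 1.42.0 and other scalings, filters, spreads and left-out libraries were alternatives. Chi-square per degree of freedom between the libraries of a group was 1.8 in CiLC, 2.94 in LC and 2.77 in MEF, so both were kept. The 10 genes, the lists and the tests were chosen with earlier results of these data known. All 10 genes are named. Of each list, the 3 called genes with the largest change in CiLC against MEF and in CiLC against LC could be named at a mean of at least 1 CPM. A gene that this rule names is not reported here. Acvr2b, Col3a1, Snai1, Acta2 and Angptl4 were named outside that rule, after their values were seen. Sums of marker lists without their most abundant gene, and levels in CPM of single Leydig cell and fibroblast markers, were added after the data were seen. Protein sequences were not used here.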

Additional observations from a re-analysis of the deposited data

How the results depend on the processing

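The counts of calls, the log2 fold changes of the 10 genes and the median of all genes were recomputed under 14 alternatives. Read ratios, marker sums, nearest profiles and the fold changes of single list genes were not. Of the values of the 10 genes, 367 kept direction and side of the threshold, 50 kept direction but lost the call, and 3 changed sign. The sign changes were in differences that were never called: Tgfb2 in CiLC over LC was 0.01 with upper-quartile scaling, and Tgfbr3 in CiLC over LC ranged from -0.02 (without LC replicate 2) and -0.01 (without CiLC replicate 1) to 0.07 with a library left out. In CiLC against MEF, the counts of members called higher and lower were 3 and 2 with DESeq2, 4 and 2 with no filter, 2 and 1 with an assumed coefficient of variation of 0.1, and 2 and 0 with 0.4. Under 0.4, edgeR gave 1 member lower at an unadjusted p under 0.05 (Tgfb3), and DESeq2, with its own dispersion, called 2. Leaving out a library gave 2 to 5 higher and 2 to 4 lower. The lowest counts came without CiLC replicate 2 for members higher, and without CiLC replicate 1 or MEF replicate 1 for members lower. In LC against MEF, members were 6 and 4 in every left-out library, and 3 and 1 under 0.4. In CiLC against LC they were 5 and 3 in every left-out library, and 0 and 1 under 0.4, where edgeR gave 0 higher at an unadjusted p under 0.05 and DESeq2 called 5. Over all genes, CiLC against MEF had 2064 higher and 2141 lower under 0.1 and 407 and 268 under 0.4. LC against MEF had 1450 and 1058, and CiLC against LC 937 and 1314, under 0.4. With a library left out, the ranges were 3030 to 3763 higher and 3097 to 3680 lower in CiLC against MEF, 4752 to 5149 and 4659 to 5165 in LC against MEF, and 4594 to 5240 and 4739 to 5267 in CiLC against LC.

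Upper-quartile scaling moved the median of all genes in LC over MEF to -0.11. With a replicate block the members' counts were 5 and 4, 6 and 4, and 5 and 3, and 3791 genes were higher and 3714 lower in CiLC against MEF, 5187 and 5107 in LC against MEF, and 5100 and 5190 in CiLC against LC. Whether the replicate numbers pair the samples is not known from the labels. Deviations correlated at 0.104 for CiLC and MEF, -0.0853 for CiLC and LC and -0.00754 for LC and MEF. With 2 libraries per group these values cannot show whether samples of 1 number shared a culture or batch. Of the list counts, 381 stayed within 1.5 times and 39 moved further. With 2 libraries per group, small differences rest on little evidence of spread.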
